A study of Ovis aries with 15 samples.

Results

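The genes described here are the amino acid, amine and peptide transporters of the solute carrier families SLC1, SLC3, SLC6, SLC7, SLC15, SLC36, SLC38 and SLC43, as expressed in the mammary gland of sheep. They were taken by symbol alone, as every row of the deposited table whose symbol is a numbered gene of these 8 families, and a gene was kept where at least 10 exon reads were counted in at least 6 of the 15 libraries. Of 24691 features, 53 carried such a symbol and 28 were kept, namely 8 of 11 SLC38 genes, 6 of 17 SLC6 genes, 3 of 9 SLC7 genes, all 3 SLC43 genes, both SLC3 genes, 2 of 4 SLC1 genes, 2 of 4 SLC36 genes and 2 of 3 SLC15 genes. Some well-known relatives appear in the table under an older protein name and were therefore not chosen by the rule. Just inside the limit were SLC38A4 and SLC6A6, each with 10 reads in 8 libraries, and just outside it were SLC7A2 and SLC6A12, each with 10 reads in 3 libraries, and SLC6A2 with 2. None of the other 22 genes left out reached 10 reads in more than 1 library.

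Mammary parenchyma of 2-year-old Romney ewes in their first pregnancy was sampled by needle biopsy at day 135 of gestation (late pregnancy) and at day 15 post partum (lactation), and each library was made from a pool of RNA from several ewes. There were 9 late pregnancy libraries and 6 lactation libraries. All ewes were managed and fed alike, and they differ in how their own dams were fed in early gestation: ad libitum (HM), at maintenance (MM) or below maintenance (LM), with maintenance feeding of all these dams later in gestation. Each dam nutrition group holds 3 late pregnancy pools and 2 lactation pools. By the submitters' design text a pool joins 3 ewes in late pregnancy and 2 in lactation, whereas by the study's methods it joins 3 in either state. The ewes were biopsied in both states, but no source ties a late pregnancy pool to the ewes of a lactation pool, so p-values measure the spread between pools. Reads on genes ranged from 7597938 to 19823166 in late pregnancy and from 10352962 to 25679416 in lactation. The share of exon reads on milk protein genes was 13.7% to 23.4% before lambing and 71.3% to 75.8% in lactation.

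Milk protein is made from amino acids that the secretory cell takes up from blood across its basolateral membrane. Carriers differ in what drives them. SLC1, SLC6 and most SLC38 proteins couple uptake to sodium, SLC36 and SLC15 proteins couple it to protons, SLC43 proteins let amino acids move down their gradient, and SLC7 light chains exchange one amino acid for another and need an SLC3 heavy chain to reach the membrane. Several members sit in the lysosome, where they release amino acids or take part in nutrient sensing.

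Transporters were called between states at about the rate of all genes, and more of them were higher in lactation than lower. On CPM (exon reads per 1000000, scaled by the trimmed mean of M-values, TMM), 14 of 28 genes rose in lactation and 7 fell at an adjusted p under 0.05 by edgeR's quasi-likelihood F-test. Over all genes tested, 68.4% were called, 33.1% as higher and 35.2% as lower, so that the share of higher members was 50.0% and that of lower members 25.0%. The median log2 change, lactation over late pregnancy, was 0.49 for the members and -0.03 for all 13345 genes tested. In 15 members no lactation library overlapped any late pregnancy library, 10 of them higher and 5 lower, and 40.2% of all genes were separated in this way, 20.2% of all genes being separated upward. There were 18 members with at least 10 reads in every library. The other 10 were kept through their late pregnancy libraries. Of these, 3 rose (SLC7A10, SLC6A9 and SLC6A20), 4 fell (SLC3A1, SLC38A1, SLC43A2 and SLC15A3) and 3 were not called (SLC38A4, SLC6A6 and SLC36A4). Keeping genes in this way favours those that are lower in lactation, so these falls are described only. Biopsies are mixed tissue, in which fewer cells of a type and less RNA per cell cannot be told apart.

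**Figure D1:**
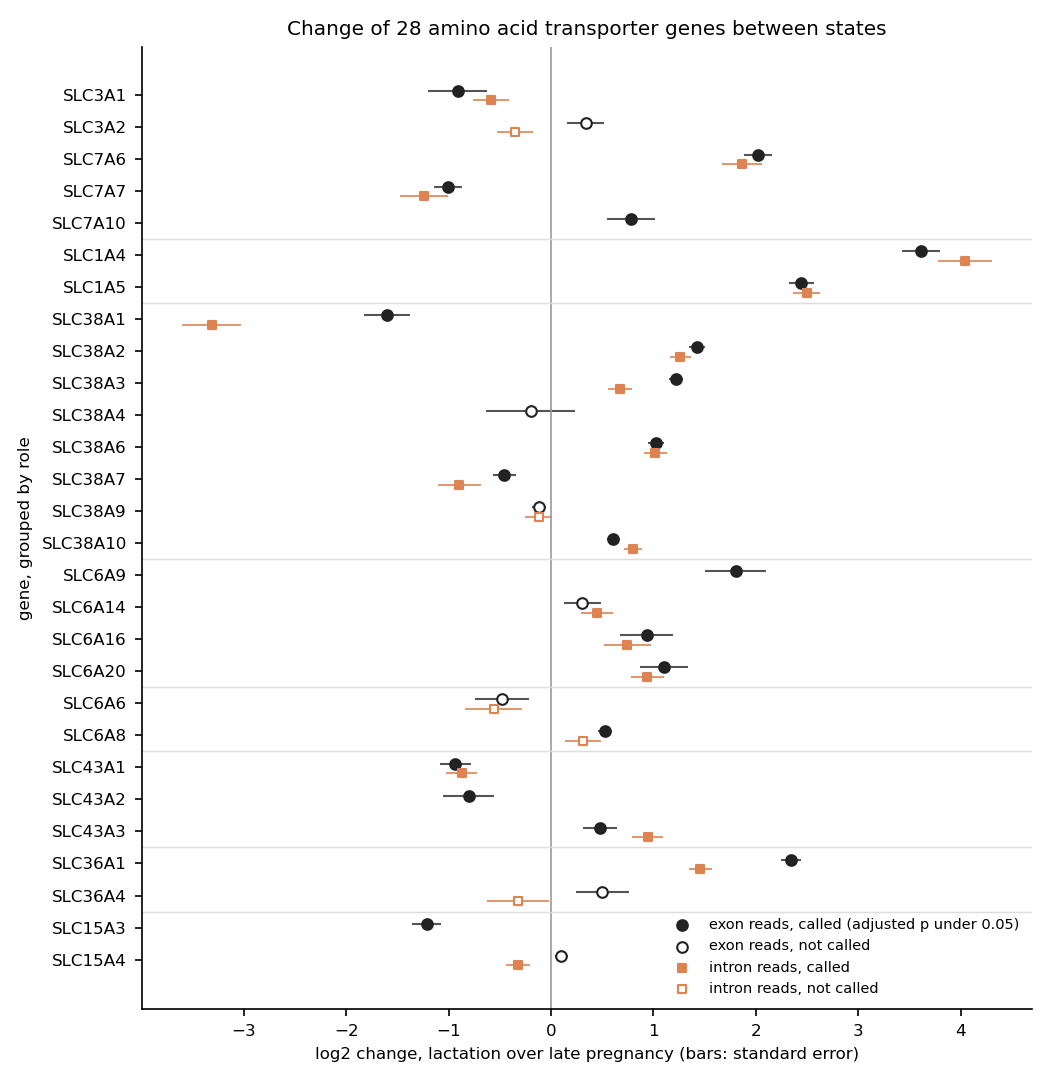
Log2 change between lactation and late pregnancy for the 28 genes, ordered by role with grey lines between roles. Black circles are exon reads and orange squares intron reads, filled where called, with bars for the standard error; SLC1A4 lies farthest to the right at 3.61 and SLC38A1 farthest to the left at -1.60 among the exon values.

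Both kept genes of the SLC1 family, exchangers of neutral amino acids, rose, beside 33.1% of all genes tested. They had the largest log2 changes of the 28 genes. SLC1A4 (ASCT1), an exchanger of alanine, serine, cysteine and threonine, ranged from 1.83 to 5.30 CPM in late pregnancy with a median of 3.80, and from 26.9 to 67.1 CPM in lactation with a median of 51.1. The lowest lactation library was therefore well above the highest late pregnancy library, and the log2 change was 3.61 ± 0.19 (SE, adjusted p = 1.16e-12, edgeR), a 12.2-fold increase. SLC1A5 (ASCT2), the main carrier of glutamine among these exchangers, ranged from 39.0 to 68.7 CPM in late pregnancy (median 54.6) and from 239 to 389 CPM in lactation (median 274). Again no libraries overlapped, and the gene rose by 2.45 ± 0.12 on the log2 scale (adjusted p = 4.90e-13, edgeR).

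Heavy and light chains did not move together. SLC3A2 (CD98hc, 4F2hc), the heavy chain shared by most light chains of the SLC7 family, ranged from 87.1 to 167 CPM in late pregnancy (median 123) and from 98.3 to 249 CPM in lactation (median 144). The states overlapped broadly, since 2 lactation pools, HM pool 1 and LM pool 2, lay above all late pregnancy pools and the other 4 lay among them. The log2 change of 0.34 ± 0.18 was not called (adjusted p = 0.101, edgeR), although it passed the threshold without lactation HM pool 2 (0.45, adjusted p = 0.0325) or without lactation MM pool 1 (0.45, adjusted p = 0.0285).

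Its partner SLC7A6 (y+LAT2), which exchanges cationic for neutral amino acids, was at 6.68 to 13.04 CPM in late pregnancy (median 9.305) and at 31.0 to 44.7 CPM in lactation (median 41.4). All lactation pools lay above all late pregnancy pools, with a log2 change of 2.02 ± 0.13 (adjusted p = 6.16e-11, edgeR). The closely related SLC7A7 (y+LAT1) went the other way. It ranged from 6.10 to 8.85 CPM in late pregnancy (median 7.32) and from 2.64 to 5.05 CPM in lactation (median 3.41), without overlap, and fell by 1.01 ± 0.13 on the log2 scale (adjusted p = 1.41e-06, edgeR). SLC7A10 (Asc-1), an exchanger of small neutral amino acids, rose by 0.78 ± 0.24 from a level under 1 CPM, but was not called within lane 7 (0.54, adjusted p = 0.235).

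SLC3A1 (rBAT), the other heavy chain, was scarce at 0.922 to 2.13 CPM in late pregnancy (median 1.55) and 0.190 to 1.22 CPM in lactation (median 0.789). The ranges overlapped, and the log2 change was -0.91 ± 0.29 (adjusted p = 0.00866, edgeR). In lactation it had 1 to 14 reads in each library, and it was kept through late pregnancy. Only 11.9% of its reads were uniquely placed, so its level is uncertain, and it was not called in the libraries of lane 7 alone (-0.35, adjusted p = 0.472).

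The SLC38 family, sodium-coupled carriers of neutral amino acids together with lysosomal relatives, had 4 genes that rose, 2 that fell and 2 that were not called. Beside these counts, 33.1% of all genes tested were higher and 35.2% lower. SLC38A2 (SNAT2), a plasma membrane carrier known to respond to amino acid supply, ranged from 138 to 160 CPM in late pregnancy (median 152) and from 333 to 536 CPM in lactation (median 394). Late pregnancy pools were nearly equal and all lactation pools lay above them, with a log2 change of 1.43 ± 0.08 (adjusted p = 3.29e-12, edgeR). SLC38A3 (SNAT3), a carrier of glutamine, asparagine and histidine, was at 28.2 to 37.7 CPM in late pregnancy (median 34.6) and at 70.9 to 81.9 CPM in lactation (median 79.8). It too was separated between states, and rose by 1.22 ± 0.07 (adjusted p = 2.47e-12, edgeR).

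SLC38A6, a less studied relative, ranged from 9.18 to 11.8 CPM in late pregnancy (median 10.8) and from 18.8 to 26.4 CPM in lactation (median 21.3), a separated rise of 1.03 ± 0.08 (adjusted p = 8.28e-10, edgeR). SLC38A10 rose by 0.61 ± 0.06, also without overlap. The opposite direction was seen for SLC38A1 (SNAT1), a plasma membrane carrier of glutamine. It was at 2.58 to 4.36 CPM in late pregnancy (median 3.55) and at 0.5705 to 2.42 CPM in lactation (median 0.996), and fell by 1.60 ± 0.23 (adjusted p = 3.46e-06, edgeR). The highest lactation pool, HM pool 1, lay just under the lowest late pregnancy pool. SLC38A1 had 3 to 12 reads in lactation libraries and was kept through late pregnancy. SLC38A7, a lysosomal exporter of glutamine, fell by 0.46 ± 0.11, and SLC38A9, the lysosomal arginine sensor of the mTORC1 pathway, had a log2 change of -0.12 ± 0.07 that was not called (adjusted p = 0.140, edgeR). SLC38A9 was called as lower under upper quartile scaling (-0.27, adjusted p = 0.00245), with library sizes less the milk protein genes (-0.33, adjusted p = 0.000638), where 10 reads were required in every library (-0.20, adjusted p = 0.0151) and within lane 8 (-0.27, adjusted p = 0.0337).

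The genes SLC38A4, SLC38A2 and SLC38A1 lie on chromosome 3 of the sheep genome within 1 stretch, SLC38A4 at chr3:139520594-139565548, SLC38A2 at chr3:139935578-139949906 and SLC38A1 at chr3:140012579-140063468. The middle gene rose, SLC38A1 fell, and SLC38A4, a carrier of neutral and cationic amino acids, was close to the limit of detection with a log2 change of -0.20 ± 0.44 that was not called. SLC43A3 at chr15:77877475-77897065 and SLC43A1 at chr15:77950358-77991433 are another pair of neighbours with opposite changes. The rise of SLC43A3 was not called under several other scalings or within either lane, and SLC38A1 was kept through late pregnancy. How often neighbours change in opposite directions over all genes was not counted. Coordinates are those of the deposited table, whose genome version is given as 3.1 in the submitters' processing notes and as 3.2 in the methods.

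Among the SLC6 carriers of amino acids, 3 of 4 rose, beside 33.1% of all genes tested. SLC6A14 (ATB0,+), a concentrative carrier of neutral and cationic amino acids, was the most abundant of the family per length. It ranged from 132 to 182 CPM in late pregnancy (median 149) and from 80.9 to 296 CPM in lactation (median 219.8). In lactation 4 pools lay above every late pregnancy pool and the other two, HM pool 2 and MM pool 2, lay below every late pregnancy pool. The log2 change of 0.31 ± 0.18 was not called (adjusted p = 0.138, edgeR), but was without lactation MM pool 2 (0.47, adjusted p = 0.00355).

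SLC6A9 (GlyT1), a glycine carrier, was at 0.665 to 1.49 CPM in late pregnancy (median 1.08) and at 1.58 to 9.004 CPM in lactation (median 2.76). All lactation pools were above all late pregnancy pools, and HM pool 1 and LM pool 2 were far above the other lactation pools, as they were for SLC3A2. The log2 change was 1.80 ± 0.30 (adjusted p = 2.20e-05, edgeR). SLC6A20 (SIT1), a carrier of proline and other imino acids, ranged from 1.10 to 2.24 CPM in late pregnancy (median 1.88) and from 1.41 to 5.56 CPM in lactation (median 3.64). One lactation pool lay among the late pregnancy pools, and the gene rose by 1.10 ± 0.23 (adjusted p = 0.000328, edgeR), but was not called in the libraries of lane 7 alone (0.34, adjusted p = 0.327). SLC6A16, an orphan of the family, rose by 0.93 ± 0.26, but was not called within lane 8 (0.80, adjusted p = 0.0876). Of the carriers of other solutes, SLC6A8, which imports creatine, rose by 0.53 ± 0.07 without overlap between states, and SLC6A6, which imports taurine, had a log2 change of -0.48 ± 0.27 that was not called (adjusted p = 0.119, edgeR). SLC6A6 was called as lower without late pregnancy LM pool 1 (-0.58, adjusted p = 0.0306), under upper quartile scaling (-0.63, adjusted p = 0.0439) and with library sizes less the milk protein genes (-0.69, adjusted p = 0.0296). It was kept through late pregnancy alone, with 2 to 7 reads in lactation libraries, and its row holds only 603 bases of exon. These calls are therefore described only.

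All 3 SLC43 genes were called, with 1 higher and 2 lower, beside 68.4% of all genes called, 33.1% as higher and 35.2% as lower. SLC43A3, which carries purine nucleobases rather than amino acids, ranged from 80.5 to 193 CPM in late pregnancy (median 117) and from 154 to 217 CPM in lactation (median 177). In late pregnancy 3 pools reached into the lactation range. Its log2 change of 0.48 ± 0.16 (adjusted p = 0.0142, edgeR) was small, and was not called under upper quartile scaling (0.33, adjusted p = 0.0742), with library sizes less the milk protein genes (0.27, adjusted p = 0.127), on quantile-normalized RPKM by limma (0.25, adjusted p = 0.177) or within either lane. The facilitative carriers of large neutral amino acids, SLC43A1 (LAT3) and SLC43A2 (LAT4), fell by 0.93 ± 0.15 and 0.80 ± 0.25. SLC43A1 did not overlap between states, whereas SLC43A2 did, and SLC43A2 was not called within lane 7 (-0.39, adjusted p = 0.316). SLC43A2 had 2 to 10 reads in lactation libraries and was kept through late pregnancy.

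Of the proton-coupled carriers, SLC36A1 (PAT1), which exports small amino acids from the lysosome and acts in mTORC1 signalling, was at 3.36 to 5.32 CPM in late pregnancy (median 4.72) and at 19.04 to 26.8 CPM in lactation (median 23.3). No libraries overlapped, and the log2 change of 2.34 ± 0.10 had the smallest adjusted p of the members (4.51e-14, edgeR). Its relative SLC36A4 was not called (0.50 ± 0.26, adjusted p = 0.0881, edgeR), although it was without lactation LM pool 2 (0.68, adjusted p = 0.00773).

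The lysosomal peptide and histidine carriers of the SLC15 family are best known from immune cells. SLC15A3 ranged from 3.105 to 4.26 CPM in late pregnancy (median 3.72) and from 1.05 to 2.20 CPM in lactation (median 1.63), without overlap, and fell by 1.21 ± 0.14 (adjusted p = 3.15e-07, edgeR). It had 6 to 18 reads in lactation libraries and was kept through late pregnancy. SLC15A4 was at 21.0 to 26.2 CPM in late pregnancy (median 23.6) and at 23.0 to 27.1 CPM in lactation (median 26.1). These ranges overlapped, and the log2 change of 0.10 ± 0.06 was not called (adjusted p = 0.145, edgeR).

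**Figure D2:**
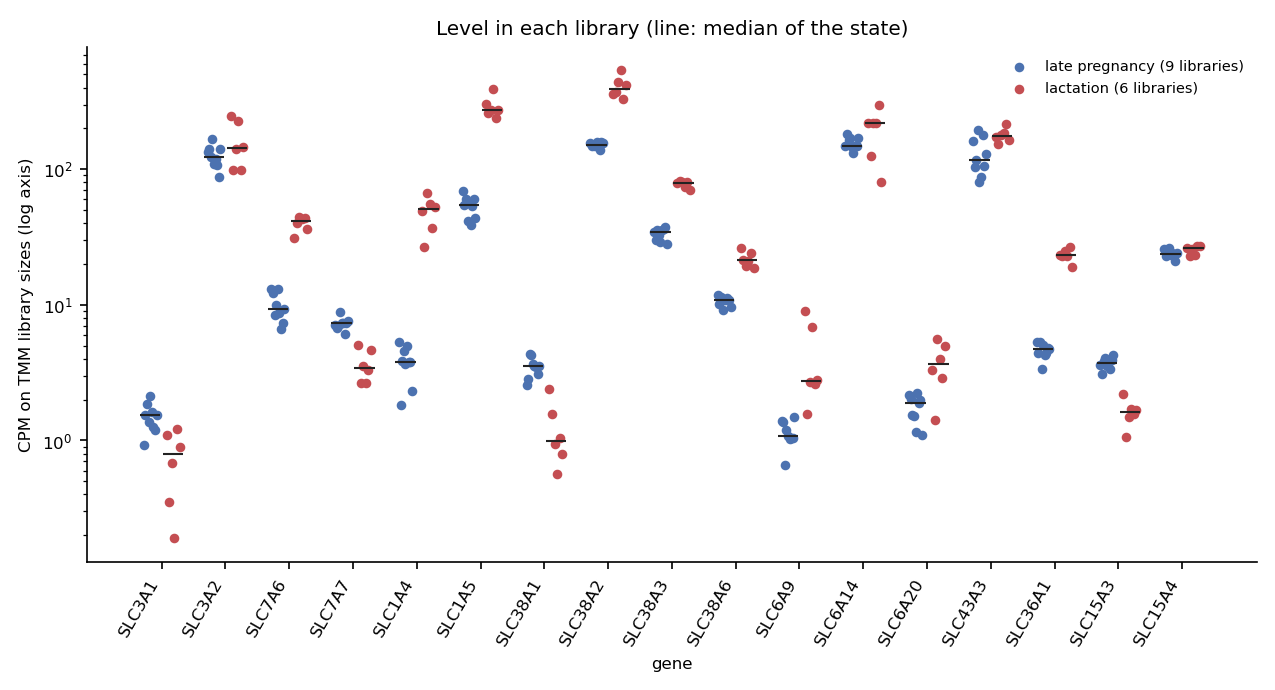
CPM in each library, on a log axis, for the 17 genes whose values by library are given in the text. Blue points are the 9 late pregnancy pools, red points the 6 lactation pools and black lines the medians; SLC1A4, SLC1A5, SLC7A6 and SLC36A1 are separated upward, SLC38A1, SLC7A7 and SLC15A3 downward, and SLC3A2 and SLC6A14 overlap.

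Cell type markers were read beside these changes, and over all genes tested 33.1% were higher and 35.2% lower. The tissue carried the markers of luminal epithelium, all 8 of which were tested, with 4 higher and 2 lower in lactation and a summed level of 1658 to 2046 CPM in late pregnancy and 2410 to 2682 CPM in lactation. Summed T cell markers were at 43.01 to 67.5 CPM in late pregnancy and 13.8 to 21.5 CPM in lactation, with all 7 tested markers lower. Macrophage markers were at 141 to 189 CPM and 77.3 to 115 CPM, with 4 of 6 tested markers lower, 1 higher (CD14) and MARCO at no more than 3 reads anywhere. SLC7A7 and SLC15A3, both known from macrophages, were among the members that fell, but SLC15A3 was kept through late pregnancy and its fall is described only. SLC15A4, also best known from immune cells, was not called (0.10 ± 0.06). The part of these cells in the members' changes was not tested. Fibroblast markers went from 378 to 678 CPM in late pregnancy to 264 to 418 CPM in lactation (4 of 6 lower, none higher), and endothelial markers from 174 to 231 CPM to 121 to 165 CPM (3 of 5 lower, none higher).

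Myoepithelial markers summed to 680 to 757 CPM and 615 to 891 CPM, with 2 higher and 2 lower of 6. The summed adipocyte markers of 239 to 452 CPM and 1499 to 1821 CPM were carried in lactation by LPL, which secretory tissue also makes, and none of the other 4 tested markers was called. Markers of B and plasma cells (2.78 to 4.44 CPM and 3.51 to 7.99 CPM, 1 higher and 1 lower of 2 tested, PAX5 at 0 in every library) and of neutrophils (0.742 to 1.86 CPM and 5.49 to 16.3 CPM, 1 higher of 2 tested, which was MPO) were scarce. The part of any of these cell types in the transporters' changes was not tested.

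Per length, the make-up of the 28 genes shifted. Reads per kilobase of exon on the CPM scale above (RPKM) summed over the 28 genes to 307 to 393 in late pregnancy and 546 to 735 in lactation. As a share of all exon reads, the 28 genes fell from a median of 0.161% in late pregnancy to 0.0831% in lactation, without overlap. With milk protein genes left out of the total, their median share rose from 0.199% to 0.323%, again without overlap. The direction of change in the summed level therefore depended on the scaling. In late pregnancy the order of levels was SLC3A2 with 59.8 ± 11.1 RPKM (SD, n = 9), SLC43A3 with 48.3 ± 15.2, SLC6A14 with 47.9 ± 4.76, SLC6A8 with 38.2 ± 3.82 and SLC38A2 with 32.1 ± 1.39. Neighbours among these 5 overlapped between libraries, and SLC38A2 was separated from the next gene, SLC38A10. In lactation SLC1A5 came first with 106 ± 19.2 RPKM (SD, n = 6), followed by SLC38A2 with 86.4 ± 15.5, SLC3A2 with 76.2 ± 30.5, SLC43A3 with 67.2 ± 8.03 and SLC6A14 with 59.2 ± 23.6, and each neighbouring pair overlapped. SLC1A5 had been eighth in late pregnancy. Together SLC1A4 and SLC1A5 made up 4.25% to 7.05% of the summed RPKM in late pregnancy and 15.9% to 21.6% in lactation. Order and shares leave out rows of the same families under older names or locus numbers. Of those, LAT1 (SLC7A5) reached a mean of 54.9 RPKM in lactation and LOC101111412 (SLC15A2) a mean of 18.6 RPKM in late pregnancy.

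**Figure D3:**
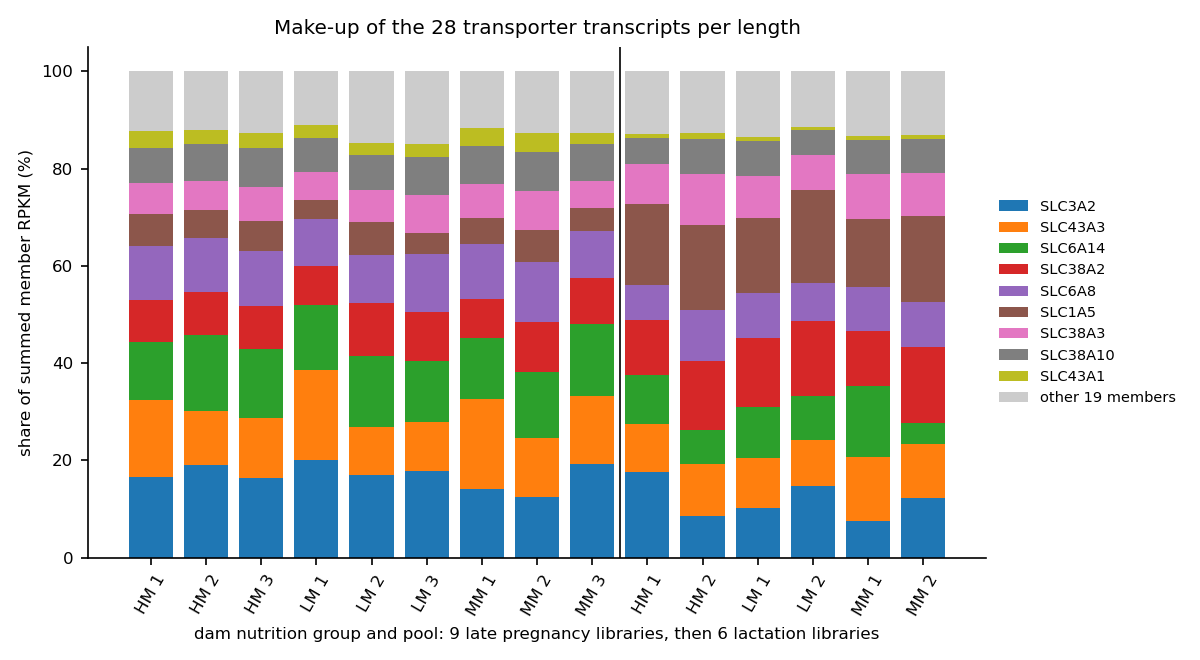
Share of the summed RPKM of the 28 genes taken by each of the 9 most abundant genes and by the other 19, in every library. The 9 bars left of the black line are late pregnancy and the 6 right of it lactation; the brown segment, SLC1A5, is wider in all lactation libraries than in any late pregnancy library.

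Spread between pools differed among genes. Among the 16 members that reached a mean of 10 CPM in a state, the coefficient of variation in late pregnancy ran from 4.34% for SLC38A2 to 31.4% for SLC43A3, and in lactation from 5.70% for SLC38A3 to 40.0% for SLC3A2.

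Reads on introns gave another readout from the same libraries, which reflects unspliced RNA and any DNA in the sample and does not replicate the exon result. Of 23 members tested, 12 were higher and 6 lower in lactation, beside 58.0% of all genes called and 29.0% in each direction, and their median log2 change was 0.45. On exons and introns 16 members were called in the same direction, and none in opposite directions. SLC38A1 had an intron change of -3.31 ± 0.29, beyond its exon change of -1.60, but with only 2 to 10 intron reads in lactation libraries. Both SLC38A1 and SLC3A1, which were among the 6 lower on introns, were kept through late pregnancy, so these falls are described only. SLC36A1 had 1.46 ± 0.11 on introns and 2.34 on exons. Differences between the readouts were not tested. SLC6A8 was called on exons and not on introns (0.31 ± 0.17, adjusted p = 0.123, edgeR), except with the TMM factors of exon reads (0.39, adjusted p = 0.0490) or without lactation MM pool 2 (0.43, adjusted p = 0.0404). SLC6A14 (0.45 ± 0.16, adjusted p = 0.0169, edgeR) and SLC15A4 (-0.32 ± 0.12, adjusted p = 0.0198, edgeR) were called on introns and not on exons. The first was not called without lactation LM pool 1 (adjusted p = 0.0928) or lactation MM pool 1 (adjusted p = 0.0722), and the second without lactation HM pool 1 (adjusted p = 0.0579) or with the TMM factors of exon reads (-0.24, adjusted p = 0.110). For SLC3A2 the intron change was -0.35 ± 0.18, which was not called (adjusted p = 0.0935, edgeR), but was without lactation LM pool 2 (-0.46, adjusted p = 0.0361) or late pregnancy MM pool 2 (-0.43, adjusted p = 0.0196).

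The direction of many changes depended on how libraries were scaled. With upper quartile scaling 13 members were higher and 9 lower, and the same counts were found with library sizes less the milk protein genes. Dividing by library size alone gave 3 higher and 23 lower, and turned 14 members from higher to lower values, among them SLC38A2 (-0.48), SLC38A3 (-0.68) and SLC38A6 (-0.87). That scaling moved the median of all genes to -1.93, upper quartile scaling moved it to -0.18 and the scaling without milk protein genes to -0.24, and calls of higher genes fell from 48.4% of all calls to 2.70%, 36.3% and 31.9%. SLC1A4, SLC1A5 and SLC36A1 were the members that stayed called as higher on library size alone.

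**Figure D4:**
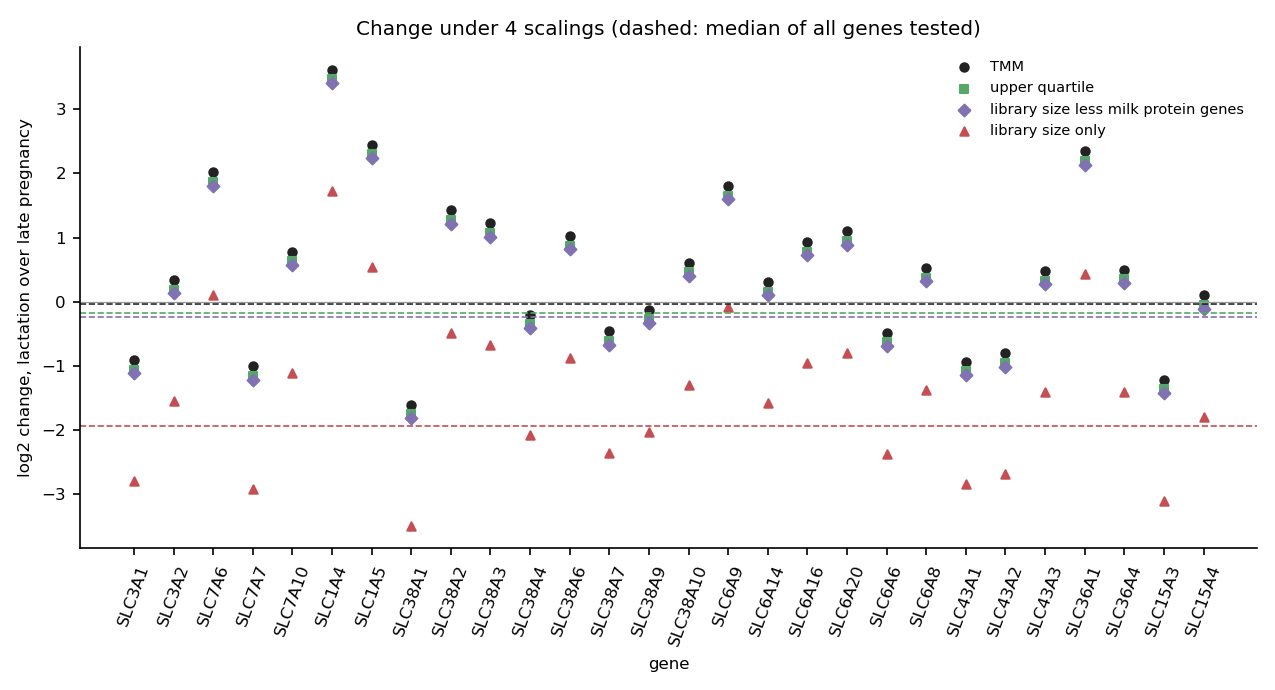
Log2 change of each member under 4 scalings, with dashed lines at the median of all genes tested under the same scaling. Red triangles (library size only) sit lower by nearly the same step for every gene, as does their dashed line at -1.93, and the other scalings lie close together.

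Column names of the table carry a sequencing lane, although the sample descriptions say that reads of each library came from a pair of lanes and were combined. Within the 7 libraries named for lane 7, 11 members were higher and 5 lower in lactation, and within the 8 libraries named for lane 8, 12 were higher and 8 lower. All LM libraries are named for lane 8, so lane and dam nutrition are partly confounded.

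Other genes of amino acid transport and handling were read from fixed lists. Over all genes tested, 33.1% were higher and 35.2% lower, and the counts of both lists stand beside these shares. Of 8 tested transporters outside the families, 6 rose and 2 fell. The vesicular nucleotide carrier SLC17A9 rose by 3.00 ± 0.15 and the lysosomal cysteine importer MFSD12 by 1.81 ± 0.09, while CTNS, the lysosomal cystine exporter, fell by 0.32 ± 0.12. Of 12 tested regulators and surface partners, 4 rose, 3 fell and 5 were not called. BSG, a chaperone of membrane carriers, rose by 0.73 ± 0.07, NEDD4L, a ubiquitin ligase that removes carriers from the membrane, rose by 0.40 ± 0.11, and CD44 fell by 1.64 ± 0.14. The kinase SGK1, which promotes carriers at the membrane, had a log2 change of -0.12 ± 0.14 and was not called (adjusted p = 0.463, edgeR), and its relative SGK2 rose by 1.88 ± 0.23 from a low level.

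Nutrition of the dams was compared in the 9 late pregnancy pools. No member was called (edgeR's quasi-likelihood F-test for 3 groups), beside 0.0% of 13747 genes, and the smallest adjusted p among members was 1.00. At an unadjusted p under 0.05 there were 3 members, beside 571 genes or 4.15% of all genes, and DESeq2 called no member and 20 genes in all. The 3 members were SLC7A6, with mean levels of 10.6, 7.77 and 11.3 CPM in LM, MM and HM, SLC1A5, with 45.7, 52.5 and 61.3 CPM, and SLC43A1, with 15.1, 19.6 and 20.5 CPM. Whether the change between states differed among dam groups was tested over all 15 libraries. No member was called (0.0% of 13345 genes, edgeR), the smallest adjusted p was 0.741, and 3 members (SLC38A1, SLC1A5 and SLC38A2) had an unadjusted p under 0.05, beside 876 genes or 6.56%. DESeq2 called no member and 19 genes in all. With 2 lactation pools in each group, a p that misses the threshold does not show equal levels.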

How the data were processed

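RNA of 15 pools of sheep mammary gland was sequenced by the authors as paired reads and mapped to the sheep genome in CLC Genomics Workbench (build Oar_v3.1 in the submitters' notes, version 3.2 in the methods). The deposited counts are the authors' numbers of reads on exons and on whole genes, not normalized. For the deposited RPKM the authors divided exon reads by exon length and by all reads on genes, which was checked from the counts to within 3.48e-07 of their size. A further deposited column holds RPKM that the authors quantile-normalized over the 15 libraries. Deposited fold changes and p-values of the authors' Baggerly test were not used.

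Exon reads were tested with edgeR 4.0.16 in R 4.3.3 (filterByExpr by state, TMM, quasi-likelihood F-test, no covariate, all 15 libraries), with Benjamini-Hochberg adjustment over all genes tested and calls at an adjusted p under 0.05. In the 5583 rows without an annotated transcript, none of them a member, whole-gene reads stood in for exon reads. For the other rows, exon reads were subtracted from whole-gene reads to give intron reads, which were tested likewise. Printed standard errors are the log2 change over the root of F. Levels are CPM on TMM library sizes, and RPKM are those CPM per kilobase of exon. Alternatives used DESeq2 1.42.0 and limma 3.58.1 (pseudocounts of 1 and 0.1), other scalings and filters, uniquely placed reads, covariates, lanes and leaving out each library. Fits were tested on simulated data. Python 3.11.15 with pandas 2.3.3 made the summaries.

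Members, gene lists and markers were chosen with earlier results of these data known. Every member could be named, and values by library are given for called members with an absolute log2 change above 1 and a mean of at least 1 CPM in a state, for both heavy chains, and for the most abundant member of each family by RPKM. The values of 1 gene of the lists are not reported here. Intervals for counting error are not given. The spread between pools includes counting error, which weighs more for members with few reads.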

Additional observations from a re-analysis of the deposited data

Results flagged for a closer look

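Each member's CPM was checked within each state for a pool far from its neighbours by Dixon's criterion, which made 56 groups, and 1 of them was marked. Chance marks about 1 in 20 groups. The late pregnancy LM pool 2 had 94.5 CPM for SLC38A10, a relative of the sodium-coupled neutral carriers, and the nearest of the other late pregnancy pools had 108 CPM. The log2 change of SLC38A10 ranged from 0.56 to 0.64 over the 15 fits that each left out 1 library, and was called in all of them.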

How the results depend on the processing

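Scarce members had few reads in lactation, where milk protein genes held 71.3% to 75.8% of exon reads. Leaving out 1 library at a time gave 14 to 15 members higher and 7 to 8 lower, a median log2 change of 0.43 to 0.53, on introns 11 to 13 higher, 5 to 7 lower and a median of 0.31 to 0.60, and 0 calls for dam nutrition and its interaction with state. With library size only, 3 members were higher and 23 lower with a median of -1.40, and on introns 6 were higher and 10 lower with a median of -0.15; the change follows from the scaling, which moved all genes. Then the log2 change was negative for SLC3A2 (-1.55), SLC7A10 (-1.11), SLC38A2 (-0.48), SLC38A3 (-0.68), SLC38A6 (-0.87), SLC38A10 (-1.29), SLC6A9 (-0.074), SLC6A14 (-1.58), SLC6A16 (-0.96), SLC6A20 (-0.80), SLC6A8 (-1.38), SLC43A3 (-1.41), SLC36A4 (-1.40) and SLC15A4 (-1.80), and on introns for SLC6A14 (-0.15) and SLC6A8 (-0.29). For SLC15A4 it was -0.047 under upper quartile scaling and -0.11 without milk protein genes. Limma on quantile-normalized RPKM gave medians of 0.25 and 0.26 at pseudocounts of 1 and 0.1, with -0.0095 and -0.010 for SLC3A2 and -0.057 and -0.061 for SLC6A14. SLC38A9 was at 0.028 in lane 7 alone, and SLC38A4 ranged from -0.72 to 0.013 over libraries left out, not called in any. Requiring 10 reads in every library left 18 members, 4 of them lower. Causes of these differences were not tested.

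Pools of 1 number in both states did not deviate together, with correlations of -0.03 to 0.09 over genes, and 2 of 6 lactation pools correlated best with their own number, so the numbers were not taken as pairs. The replicate block gave 14 members higher, 6 lower and a median of 0.47, on introns 12, 6 and 0.45, and 0 for dam nutrition and the interaction. SLC3A1 alone lost its call (-0.81, adjusted p = 0.0684, edgeR).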

Other observations

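There were 10 rows of the table that belong to the same families under an older protein name or a locus number. They are not among the 28 genes, and were identified after row names and values had been seen, by gene ID, by synonym or by shared neighbouring genes in the reference annotation of assembly ARS-UI_Ramb_v3.0. Of these, 5 rose, 3 fell and 2 were not called by edgeR's quasi-likelihood F-test, beside 33.1% of all genes tested higher and 35.2% lower. LAT1 (SLC7A5), the light chain that carries leucine and other large neutral amino acids with SLC3A2, ranged from 0.517 to 1.94 CPM in late pregnancy (median 1.04) and from 39.2 to 154 CPM in lactation (median 77.8), and its log2 change of 6.17 ± 0.28 was beyond that of every member. CAT-1 (SLC7A1), a carrier of arginine and lysine, rose by 2.84 ± 0.19, and the row LOC101119078 (SLC7A4) rose from a median of 4.79 CPM to 42.2 CPM without overlap. The glutamate carriers EAAT3 (SLC1A1) and EAAT2 (SLC1A2) rose by 2.76 ± 0.09 and 1.13 ± 0.10, and EAAT1 (SLC1A3) had a log2 change of 0.18 ± 0.19 that was not called (adjusted p = 0.393, edgeR).

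The peptide carriers went the other way. PEPT1 (SLC15A1) ranged from 12.6 to 26.8 CPM in late pregnancy and from 0.2196 to 0.813 CPM in lactation, with at most 7 reads in any lactation library, and fell by 5.14 ± 0.24 on the log2 scale. The row LOC101111412 (SLC15A2) ranged from 28.8 to 48.4 CPM in late pregnancy and from 4.87 to 22.9 CPM in lactation, and fell by 1.83 ± 0.21. LAT2 (SLC7A8), another partner of SLC3A2, fell from a median of 2.03 CPM to 0.529 CPM (adjusted p = 9.32e-05, edgeR). It had only 2 to 15 reads in lactation libraries, so this fall is described only. Its intron change of -0.08 ± 0.19 was not called (adjusted p = 0.752, edgeR). SERT (SLC6A4), a serotonin carrier, was close to the limit of detection.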
